A study of Mus musculus with 31 samples.

Results

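The miRNAs described here are the 39 mouse entries of an Agilent miRNA array whose names begin with miR-297, miR-466, miR-467 or miR-669, of 611 mouse entries and 650 entries in all. The rule matches names alone and uses no measured value. The RNA came from lungs of female mice of the inbred BALB/c strain. Exposed mice breathed cigarette smoke and control mice room air, and lungs were taken after 4, 6, 8 or 12 weeks. Each of these 8 groups has 4 arrays, except for 12 weeks smoke with 3, which makes 31. The labels name no mutation, transgene or further agent for any group and give neither mouse age nor smoke dose. They also do not say that arrays of 1 group stem from different mice, so the p-values reflect how far these samples vary, and that variation may be technical.

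Most genes of these families lie in a long run of near-identical copies inside an intron of Sfmbt2, which encodes a polycomb-group protein and is an imprinted gene expressed from the paternal allele in mouse placenta. miRNAs inside an intron are usually cut from the transcript of their host gene, and each mature miRNA then guides the silencing of mRNAs that pair with its seed, bases 2 to 8. Copies arose by repeated duplication, so family members differ by few bases and several genes can give the same mature miRNA. Whether the array probes separate such near copies was not tested.

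The shared label of an Sfmbt2 cluster held for most entries and not for all of them. The RefSeq gene table of GRCm38.p6, used for names and neighbourhood only, lists 82 genes of the 4 families, of which 72 lie within Sfmbt2, and every miRNA gene it lists there belongs to these families. By gene name, 29 of the 39 entries have genes only within Sfmbt2, and 3 (miR-297a-3p, miR-466f-3p and miR-466f-5p) have genes both there and elsewhere. Another 6 (miR-466i-3p, miR-466j, miR-466k, miR-467f, miR-467g and miR-669n) have their only gene elsewhere, and miR-466a-5p has no gene of that name in the table. Copy number differs widely among the names, with 12 genes for miR-669a, 10 for miR-467a, 8 for miR-466b and 1 for miR-669f.

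RefSeq gives a mature sequence under the array's own name for 6 of the 39, the same 6 that lie outside Sfmbt2. They are shown because they display the dinucleotide repeats that these families are built from, with the seed in capitals.
miR-466i-3p: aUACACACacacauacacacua
miR-467f: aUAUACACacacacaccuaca
miR-467g: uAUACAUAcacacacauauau
miR-466j: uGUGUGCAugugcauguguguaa
miR-466k: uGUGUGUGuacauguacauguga
miR-669n: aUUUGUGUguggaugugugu
Across family names, these sequences fall into 2 repeat types. miR-466i-3p, miR-467f and miR-467g hold ACACAC, which is found in 1.47% of the 476 mouse entries with a sequence, and miR-466j, miR-466k and miR-669n hold UGUGUG, found in 2.52% (the given strand only). None of the 6 seeds occurs in another array entry with a sequence, so no seed groups could be formed among them. miR-669f-3p, miR-466b-3p, miR-467d-3p, miR-669a_v15.0 and miR-467b-5p, which carry the main differences below, are among the 33 named without a sequence.

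All values are the scanner's processed signal of the miRNA's brightest probe, divided by a 75th percentile of its array and given as log2, so 0 is that percentile. Signals under a floor of -6.74 log2 were set to it, and a probe counts as detected when 50% or more of its spots are above background. Levels of different probes are not comparable, because probes bind with different strength. Detection on 75% of the arrays in at least 1 group was required for testing with limma. This left 272 entries, and a miRNA is called lower or higher at a Benjamini-Hochberg adjusted p of 0.05 or less over those 272. In bulk lung, fewer cells of a type and less RNA per cell cannot be told apart.

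Some arrays of a group lay much closer to each other than others did. Over 205 other miRNAs detected on every array, the SD of the log2 difference between arrays of different groups was 0.178 or more in all 420 pairs. Within groups it ran from 0.0553 to 0.816, and 20 of 45 pairs were closer than any pair of different groups, with none between 0.160 and 0.231. All 6 pairs of the 8 weeks controls and all 6 of the 12 weeks controls were among the 20, against 0 of 6 pairs of the 8 weeks smoke arrays. The closest pair, replicates 3 and 4 of 6 weeks smoke, still differed by more than its spot-to-spot noise, which over all pairs came to 0.0290 to 0.0471, so no array was a copy of another. Whether close arrays share an animal or an RNA pool was not tested. Calls are therefore also given with close arrays averaged into 1 sample, in 2 ways chosen after seeing the data: pairs under 0.1 (23 samples, 15 residual degrees of freedom) and pairs under the lowest distance between groups (18 samples, 10 residual degrees of freedom).

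**Figure D1:**
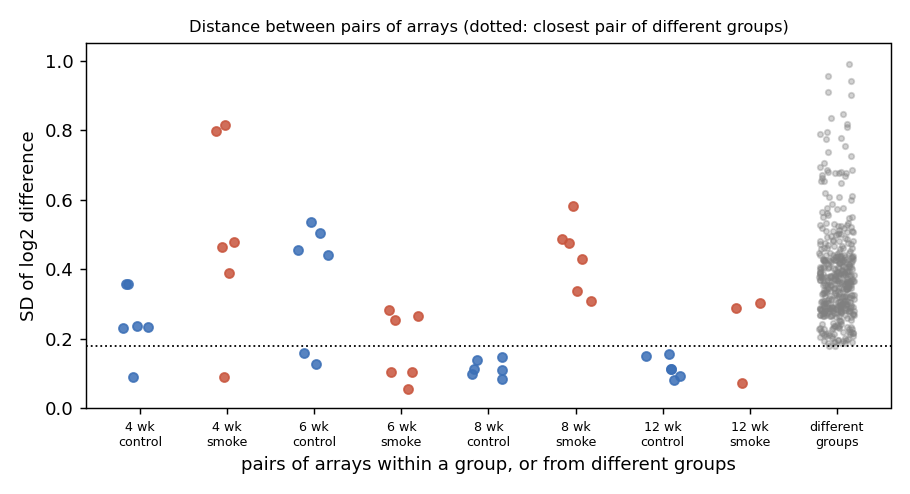
The vertical axis is the SD of the log2 difference between 2 arrays over 205 miRNAs, and each point is a pair of arrays, by group (blue control, red smoke) or from different groups (grey). The 8 weeks and 12 weeks controls lie wholly under the dotted line at 0.178, the closest pair of different groups, and the 8 weeks smoke arrays wholly above it.

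On each slide the smoke arrays took 1 row and the controls the other, with a fixed column for every duration, so array position and smoke or duration cannot be told apart. Slide and group can be told apart, since all 8 groups were spread over the 4 slides, and only 12 weeks smoke was missing from 1 of them. Lung marker miRNAs of leukocytes (5 of 5), endothelium (2 of 2), epithelium (5 of 5) and multiciliated cells (3 of 3) were detected on every array. miR-122-5p, which marks liver, was at the floor on all 16 control arrays and reached 1.57 log2 on a smoke array of 12 weeks, and its part in the results was not tested. Summed striated muscle markers were higher on every smoke array at 6 weeks (0.27 to 0.70 against -0.52 to -0.27 log2) and 12 weeks (0.40 to 1.20 against 0.22 to 0.38). They overlapped at 4 and 8 weeks, with up to 2.49 in 4 weeks controls and 2.58 in 8 weeks smoke. Summed erythroid markers were higher on every smoke array at 12 weeks (6.17 to 6.26 against 5.95 to 6.07) and overlapped at the other durations. The summed leukocyte markers were lower on every smoke array than on every control array at 4 weeks (2.35 to 3.07 against 3.17 to 3.22 log2), 6 weeks (2.68 to 2.76 against 2.82 to 3.17) and 12 weeks (2.60 to 2.92 against 3.13 to 3.36). At 8 weeks they overlapped (2.54 to 3.43 against 2.93 to 2.96). The summed epithelial markers were higher on every smoke array at 4 weeks (2.75 to 3.08 against 2.56 to 2.72), 6 weeks (2.84 to 2.92 against 2.68 to 2.78) and 12 weeks (2.90 to 2.93 against 2.79 to 2.89), and overlapped at 8 weeks. Endothelial markers were lower on every smoke array at 12 weeks (4.83 to 4.94 against 5.07 to 5.14) and overlapped at the other durations. Multiciliated markers were lower on every smoke array at 4 weeks, higher at 12 weeks and overlapped in between. In the averaged limma comparison, 1 leukocyte marker was higher and 2 were lower, 1 endothelial marker was lower, and 1 epithelial and 1 multiciliated marker were higher. The sums add unlogged signals, so the brightest markers weigh most and single markers can go the other way. At 4 weeks 2 of the 5 leukocyte markers were called lower and 2 higher, with a median difference of 0.36 log2. At 6 and 12 weeks 0 of 5 were called. Of the 5 epithelial markers 3 were called higher at 4 weeks, and 2 had a difference below 0. The part of cell makeup in the results was not tested.

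The families were sparsely detected in lung. Of the 39 entries, 16 (41.0%) were detected on at least 1 array, 23 on none, and miR-669f-3p and miR-467b-5p on all 31. Of the other 572 mouse entries, 290 (50.7%) were detected at least once. By family, detection on any array held for 1 of 3 miR-297 entries, 6 of 14 miR-466 entries, 6 of 10 miR-467 entries and 3 of 12 miR-669 entries. By arm of the hairpin it held for 6 of 12 entries named 3p, 6 of 17 named 5p and 4 of 10 that name no arm. No spot of any member was saturated.

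The filter kept 12 of the 39 (30.8%), against 257 of the other 572 mouse entries (44.9%). They are miR-297a-3p, miR-466b-3p, miR-466f-3p, miR-466g, miR-466i-3p, miR-467b-5p, miR-467d-3p, miR-467e-5p, miR-467f, miR-669a_v15.0, miR-669f-3p and miR-669n. miR-297a-3p and miR-466g passed it through the 8 weeks controls alone, and miR-669n through the 6 and 8 weeks controls alone. For these 3 a lower value in smoke is in part set by the filter, and counts over the 12 are given as description. Below the filter, miR-467c-5p was detected on 5 arrays, miR-466c-5p_v15.0 and miR-467a-5p on 2 each and miR-466h-5p on 1.

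**Figure D2:**
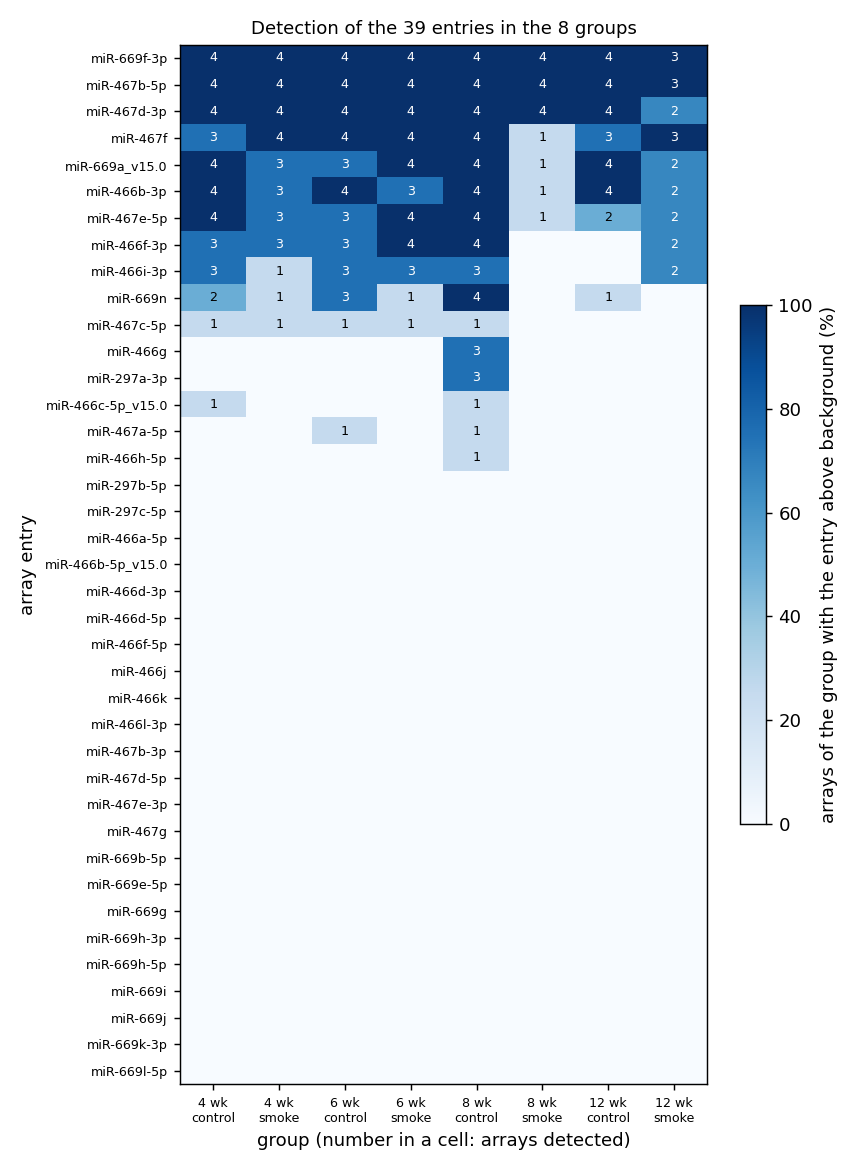
Rows are the 39 entries and columns the 8 groups, and colour and number give the share (%) and count of arrays with the entry above background. miR-669f-3p and miR-467b-5p are detected throughout, 23 rows are empty, and miR-297a-3p, miR-466g and miR-466h-5p are detected among the 8 weeks controls and in no other group.

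Between 3 and 16 of the 39 were detected per array, with a median of 8. The 8 weeks controls had 12, 16, 12 and 9, and the 8 weeks smoke arrays had 3, 3, 3 and 7, so these groups did not overlap. At the other durations they did: 6 to 12 against 5 to 11 at 4 weeks, 5 to 12 against 8 to 10 at 6 weeks, and 5 to 8 against 3 to 9 at 12 weeks. By group median, array brightness moved with this count at 8 and 12 weeks. At 4 weeks it did not, with 1619 scanner units and 9.5 entries in controls against 1754 and 7.5 in smoke. The median 75th percentile of raw signal was 2480 scanner units in the 8 weeks controls and 1577 in the 8 weeks smoke arrays, whereas at 12 weeks it was 1467 in controls and 1874 in smoke. All probes moved alike, with 482 to 576 detected in the 8 weeks controls and 429 to 460 in the 8 weeks smoke arrays. The part of brightness in the detection counts was not tested.

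**Figure D3:**
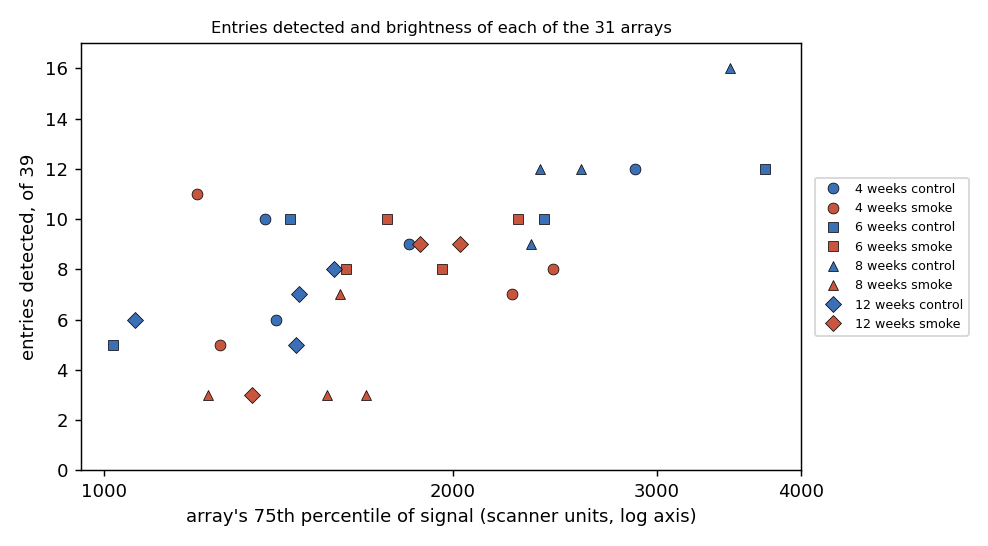
Each point is 1 of the 31 arrays, with the 75th percentile of its raw signal (scanner units, log axis) against the number of the 39 entries detected. The 8 weeks controls (blue triangles) lie at 2337 to 3472 units with 9 to 16 entries, and the 8 weeks smoke arrays (red triangles) at 1229 to 1681 units with 3 to 7.

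Averaged over the 4 durations, 6 of the 12 tested entries were lower in smoke-exposed lung and 0 were higher. Of all 272 tested entries, 12.1% were lower, 15.4% higher and 27.6% called in either direction. The 6 were miR-669f-3p, miR-669a_v15.0 and miR-669n, miR-467d-3p and miR-467b-5p, and miR-466b-3p. The median difference of the 12 was -0.21 log2, against -0.0051 over all tested entries, and all 12 estimates lay below 0, against 52.2%. For miR-297a-3p and miR-466g all 15 smoke arrays were at the floor, so their estimates could not lie above 0. Of their 16 controls, 15 and 14 were at the floor as well. miR-669n, among the 6, met the filter through control groups alone, so its direction is in part set by the filter. Of the 7 tested entries named only at Sfmbt2, 5 were lower (median -0.25 log2), against 1 of 3 with their only gene elsewhere (-0.074) and 0 of 2 at both (-0.098). The difference between these sets was not tested. Of those elsewhere, miR-466i-3p and miR-669n were at the floor on 12 and 11 of 15 smoke arrays. On the 16 controls this held for 7 and 5, which limits the difference they can show. With arrays closer than 0.1 averaged, 3 were lower (miR-669f-3p, miR-466b-3p and miR-467d-3p), and with the wider limit 1, miR-669f-3p.

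**Figure D4:**
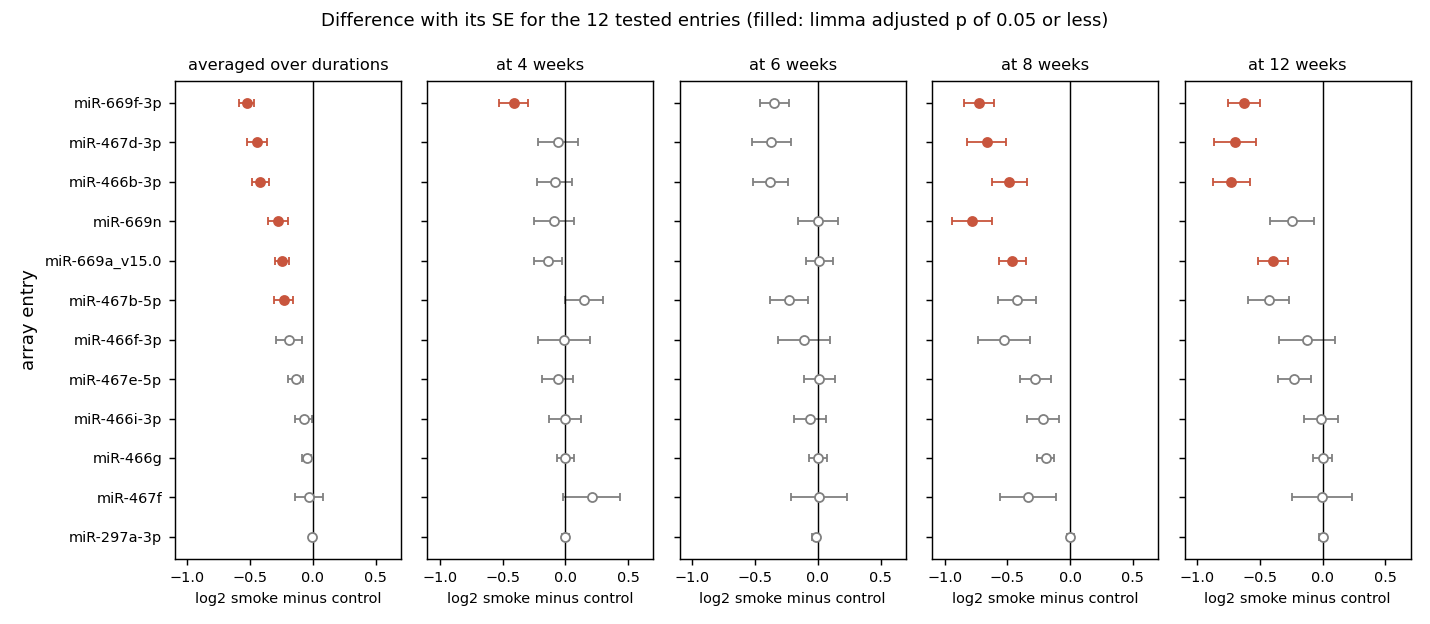
Points are log2 smoke minus control for the 12 tested entries, averaged and at each duration, with bars of 1 SE from limma on 31 arrays, and filled points have an adjusted p of 0.05 or less. Filled points number 6, 1, 0, 5 and 4 from left to right, and all of them lie below 0.

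Within the miR-669 family, miR-669f-3p had the clearest difference. At 4 weeks its values were -4.25, -4.13, -4.19 and -4.70 log2 in controls and -4.56, -4.77, -4.96 and -4.63 in smoke. At 6 weeks they were -4.42, -4.46, -4.29 and -4.23 in controls and -4.73, -4.38, -4.89 and -4.77 in smoke. The groups overlapped at both durations, through the lowest control of 4 weeks and through smoke replicate 2 of 6 weeks. At 8 weeks controls were at -3.92, -4.06, -4.00 and -4.09 and smoke arrays at -4.50, -4.80, -4.997 and -4.68. At 12 weeks controls were at -4.23, -4.07, -4.05 and -4.11 and smoke arrays at -4.78, -4.81 and -4.64. At these durations every smoke array was below every control array. The averaged difference was -0.53 ± 0.06 log2 (SE, 15 smoke and 16 control arrays), 69.3% of control, with a limma adjusted p of 1.77e-07.

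The difference of miR-669f-3p kept its call when any 1 array was left out, at -0.56 to -0.51 log2. With close arrays averaged it was -0.50 log2 (limma adjusted p 0.00036) under the limit of 0.1 and -0.49 (0.0316) under the wider limit. Its other probe, also detected on all 31 arrays, gave -0.48 log2. Smoke was lower than control in 13 of 15 pairs on the same slide and duration, and the 4 slide means ran from -0.73 to -0.35 log2.

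miR-669a, whose mature product has been described as a repressor of MyoD in heart progenitors, is listed on the array as miR-669a_v15.0. At 8 weeks its values were -6.01, -6.03, -6.09 and -6.19 log2 in controls and -6.64, -6.56, -6.74 and -6.22 in smoke. At 12 weeks controls were at -6.11, -6.02, -5.99 and -5.94 and smoke arrays at -6.34, -6.47 and -6.41. Smoke arrays were below all controls at both durations, narrowly so for replicate 4 of 8 weeks smoke, and 1 smoke array of 8 weeks lay at the floor. miR-669a_v15.0 was detected on 15 of 16 control and 10 of 15 smoke arrays. At 8 weeks it was detected on 4 of 4 controls and 1 of 4 smoke arrays. The averaged difference was -0.25 ± 0.06 log2 (limma adjusted p 0.00125), and its other probe gave -0.14. It missed the threshold with close arrays averaged (0.0584 and 0.327) and without scaling between arrays (-0.39, 0.0601), and 3 of 4 slide means were below 0, the highest at 0.033.

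miR-669n, of a single gene outside Sfmbt2, had a different shape. At 8 weeks the controls were at -5.67, -6.05, -5.79 and -6.29 log2, and the smoke arrays at -6.71 once and at the floor 3 times. At 6 weeks all 8 arrays were at the floor after scaling, though it was detected on 3 of 4 controls and 1 of 4 smoke arrays. Of the 31 arrays, 16 lay at the floor, and it was detected on 10 control and 2 smoke arrays. The averaged difference of -0.28 ± 0.08 log2 (limma adjusted p 0.0107) therefore rested largely on 8 weeks, and over 4, 6 and 12 weeks alone it was -0.11 (0.422). With close arrays averaged it missed the threshold (0.113 and 0.336). It met the filter through the 6 and 8 weeks controls alone, which in part sets a lower value in smoke.

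In the miR-467 family, miR-467d-3p was lower in smoke. Its controls were at -5.72, -5.85, -6.00 and -6.23 log2 at 4 weeks, with smoke arrays at -6.02, -5.96, -5.97 and -6.09, and the groups overlapped. At 8 weeks controls were at -5.31, -5.65, -5.48 and -5.69 and smoke arrays at -5.99, -6.33, -6.56 and -5.91. At 12 weeks controls were at -5.68, -5.59, -5.53 and -5.58 and smoke arrays at -6.21, -6.37 and -6.29. The later groups did not overlap, and 12 of all 16 controls were above all 15 smoke arrays. The averaged difference was -0.45 ± 0.08 log2 (73.3% of control, limma adjusted p 0.000101), with 4 slide means of -0.66 to -0.29. It was -0.42 (0.0124) with arrays closer than 0.1 averaged and -0.44 (0.0975) with the wider limit. Its other probe never left the floor, so this result rests on 1 probe.

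At 6 weeks the controls of miR-467d-3p fell into 2 levels, -6.15 and -6.22 log2 in replicates 1 and 2 and -5.39 and -5.44 in replicates 3 and 4. Smoke arrays lay between -6.28 and -6.08. miR-466b-3p had the same split of controls, at -6.63 and -6.61 against -5.84 and -5.85. These control pairs are also the close pairs of that group, with SDs of 0.160 and 0.126 over the other miRNAs. Before scaling there was no such split. The raw signals of replicates 1 to 4 were 33.7, 49.9, 34.5 and 23.5 scanner units for miR-467d-3p and 24.3, 38.3, 25.3 and 17.7 for miR-466b-3p. The 75th percentiles that these signals were divided by were 2398, 3725, 1446 and 1018. The part of array brightness in the split was not tested.

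miR-467b-5p, a miRNA reported to target lipoprotein lipase in macrophages, had control values from -5.53 to -4.87 log2 (median -5.15, n = 16) and smoke values from -6.05 to -4.83 (median -5.46, n = 15). The ranges overlapped widely, and the highest array of all was a 4 weeks smoke array. Its averaged difference was -0.23 ± 0.08 log2 (limma adjusted p 0.0234), and its other probe gave -0.23. The call was lost without 8 weeks (-0.17, 0.174), without scaling between arrays (-0.38, 0.0523), without the detection filter and with close arrays averaged (0.233 and 0.566).

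miR-467e-5p and miR-467f were not called. For miR-467e-5p the averaged value was -0.14 ± 0.06 log2 (limma adjusted p 0.0977), with smoke below control in 12 of 15 slide pairs, and it passed when replicate 2 of 6 weeks smoke or replicate 4 of 4 weeks controls was left out. For miR-467f, from a single gene outside Sfmbt2 and detected on 26 arrays, it was -0.031 ± 0.11 log2 (0.891), and 2 smoke arrays and 1 control were at the floor.

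In the miR-466 family, miR-466b-3p was lower in smoke. Its 8 weeks controls were at -6.19, -6.18, -6.16 and -6.09 log2, and the smoke arrays at -6.67, -6.41 and, for 2 arrays, the floor. Its 12 weeks controls were at -5.93, -6.10, -5.94 and -6.06, and the smoke arrays at -6.72 and, for 2 arrays, the floor. Neither pair of groups overlapped, and it was detected on 16 of 16 control and 9 of 15 smoke arrays. The averaged difference was -0.42 ± 0.07 log2 (limma adjusted p 4.99e-05), with smoke lower in 14 of 15 slide pairs and slide means of -0.52 to -0.33. Since 5 smoke arrays were set to the floor, the size of this difference depends on the floor. It was -0.41 (0.00751) with arrays closer than 0.1 averaged and -0.40 (0.0651) with the wider limit, and its other probe gave -0.34.

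**Figure D5:**
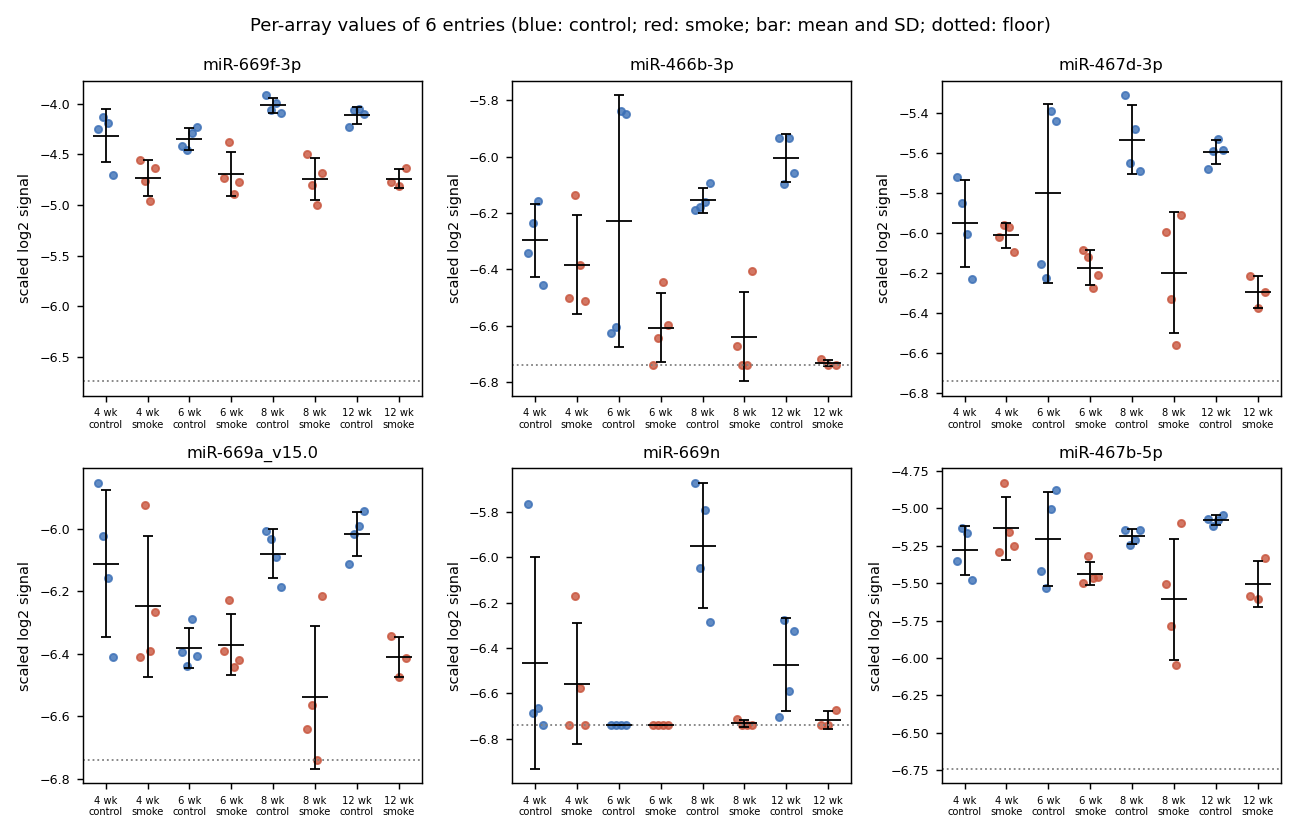
Scaled log2 signal of the 6 entries called in the averaged comparison, by group, with 1 point per array (blue control, red smoke), bars for mean and SD, and a dotted line at the floor of -6.74. For miR-669f-3p every smoke array of 8 and 12 weeks lies below every control, and for miR-669n all 8 arrays of 6 weeks lie on the floor.

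miR-466f-3p, miR-466i-3p and miR-466g were not called. The averaged values were -0.19 ± 0.11, -0.074 ± 0.07 and -0.049 ± 0.04 log2, with limma adjusted p of 0.181, 0.419 and 0.335. Most of their smoke arrays were at the floor, 11, 12 and 15 of 15 in that order, and so were 6, 7 and 14 of 16 controls. The 8 weeks controls of miR-466f-3p were at -5.74, -6.26, -6.03 and -6.66 log2, and it was detected on 4 of 4 of them, against 0 of 4 smoke arrays. These controls were at least 1.29-fold higher than the smoke level that the arrays could detect, with a limma adjusted p of 0.102, while for miR-466g and miR-466i-3p that bound was 1.00 and 1.02. At the other durations detection of miR-466f-3p was not lower in smoke. It was 3 of 4 in both groups at 4 weeks, 3 of 4 controls and 4 of 4 smoke arrays at 6 weeks, and 0 of 4 and 2 of 3 at 12 weeks. For miR-466i-3p it was 3 of 4 and 1 of 4 at 4 weeks and 0 of 4 and 2 of 3 at 12 weeks. The only tested miR-297 entry, miR-297a-3p, lay above the floor on 1 of 31 arrays, and its averaged value was -0.0044 ± 0.01 log2 (0.857).

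The calls differed in number between durations. At 4 weeks only miR-669f-3p was lower, by -0.41 ± 0.12 log2 (limma adjusted p 0.0142), where 11.4% of all tested entries were lower and 26.8% higher. No member had every smoke array below every control array, which held for 6.25% of all tested entries. The call was lost without smoke replicate 3 (-0.34, 0.0598), when only the 4 weeks arrays were fitted and when close arrays were averaged (0.0514 and 0.111). The next lowest p were those of miR-669a_v15.0 (-0.14 ± 0.11) and miR-467b-5p (0.15 ± 0.15). The median of the 12 was -0.034 log2, against 0.17 over all tested entries.

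At 6 weeks 0 of 12 passed in limma, with 3 at an unadjusted p under 0.05, where 0.368% of all tested entries were lower and 7.72% higher. Groups overlapped for all 12, and every smoke array lay below every control for 3.31% of all tested entries. Those 3 were miR-669f-3p at -0.35 ± 0.12 log2 (adjusted p 0.0758), miR-466b-3p at -0.38 ± 0.14 (0.0925) and miR-467d-3p at -0.37 ± 0.16 (0.152). Single arrays decided these: miR-669f-3p passed without smoke replicate 2 (-0.45, 0.0185) or without replicate 4 of the 4 weeks controls, miR-466b-3p without control replicate 1 or 2 (-0.51 and -0.50, 0.0122 and 0.0143) and miR-467d-3p without control replicate 2 (-0.51, 0.0337).

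At 8 weeks 5 of 12 were lower and 0 higher, against 7.35% and 3.68% of all tested entries. They were miR-669f-3p at -0.73 ± 0.12 log2 (limma adjusted p 0.00012), miR-669n at -0.78 ± 0.16 (0.0015), miR-467d-3p at -0.66 ± 0.16 (0.00571), miR-669a_v15.0 at -0.46 ± 0.11 (0.00586) and miR-466b-3p at -0.48 ± 0.14 (0.0179). In these 5 every smoke array lay below every control array, which held for 12.1% of all tested entries. miR-669n was not above background on any smoke array of 8 weeks, and its controls were at least 1.51-fold higher. It met the filter through the 6 and 8 weeks controls alone, so its place among the 5 is in part set by the filter. The call of miR-466b-3p was lost without smoke replicate 2 (0.0623) or 3 (0.0614), both at the floor. The median of the 12 was -0.44 log2, against -0.050 over all tested entries. With arrays closer than 0.1 averaged, 1 stayed called, miR-669f-3p (0.0250), and with the wider limit, which leaves 1 control sample whose spread is taken from the other groups, 0 (4 at an unadjusted p under 0.05). The 8 weeks controls were also the brighter arrays, and with brightness as a covariate 10 of the 12 were called. Brightness did not overlap between these groups (2337 to 3472 against 1229 to 1681 scanner units). That fit therefore cannot tell brightness and smoke apart at 8 weeks.

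At 12 weeks 4 of 12 were lower and 0 higher, against 4.41% and 5.15% of all tested entries. They were miR-466b-3p at -0.73 ± 0.15 log2 (limma adjusted p 0.00138), miR-669f-3p at -0.63 ± 0.13 (0.00138), miR-467d-3p at -0.70 ± 0.17 (0.00611) and miR-669a_v15.0 at -0.39 ± 0.12 (0.0346). The last was lost on leaving out any of the 3 smoke arrays or any of control replicates 2, 3 and 4, with an adjusted p of up to 0.135. It held under 5 of 18 other settings and was lost, among others, under quantile normalization, the 75th percentile of all probes, no detection filter, the deposited series table and averaging over probes. These 4 and miR-467b-5p (-0.43 ± 0.16, 0.101) did not overlap between groups, 5 of 12, against 25.7% of all tested entries. Here the smoke arrays were the brighter ones, and without any scaling between arrays 0 of 12 were called and 0 reached an unadjusted p under 0.05. With close arrays averaged 0 stayed called under both limits (4 and 3 at an unadjusted p under 0.05).

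A difference between durations in the response to smoke was not detected for these miRNAs. The moderated F test of limma called 0 of 12, against 6.99% of all tested entries, with 5 at an unadjusted p under 0.05. The lowest p were those of miR-669n (adjusted p 0.076), miR-669a_v15.0 (0.0934) and miR-467d-3p (0.113). miR-669n passed without control replicate 1 or smoke replicate 4 of 4 weeks, with an adjusted p down to 0.00622, and miR-669a_v15.0 without smoke replicate 4 of 8 weeks (0.0201). The larger number of calls at 8 and 12 weeks is therefore not shown to be a change with duration, and on these tests equal responses are not shown either.

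Among controls alone, the F test between durations called 1 of 12, miR-669n (limma adjusted p 0.0124), against 6.99% of all tested entries. Its control means were -6.46 ± 0.47, -6.74 ± 0, -5.95 ± 0.27 and -6.47 ± 0.21 log2 (SD, n = 4) at 4, 6, 8 and 12 weeks, the 6 weeks value being the floor. The entry was detected on 2, 3, 4 and 1 of 4 controls in that order, so the 6 weeks floor value is not a lack of detection. It had met the filter through the 6 and 8 weeks controls alone, and miR-466g through the 8 weeks controls alone, so the filter helped to set these differences and nothing is read from them. miR-669a_v15.0 (0.102) and miR-466g (0.114) had the next lowest p. The call was lost without control replicate 1 or 3 of 8 weeks (adjusted p up to 0.0698), while miR-669a_v15.0 passed without smoke replicate 2 of 4 weeks or 4 of 8 weeks and miR-466g without control replicate 2 or 4 of 8 weeks. With close arrays averaged the call of miR-669n was also lost.

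Among miRNAs of other loci with UGUGUG in their sequence, or added by name (miR-574-5p and miR-1187), 9 were on the array and 4 tested. Of these 1 was higher in the averaged comparison and 0 were lower, with a median of -0.068 log2. let-7b-5p was at -0.093 ± 0.10 log2, miR-574-5p at -0.075 ± 0.11 and miR-1187 at -0.061 ± 0.12, with limma adjusted p of 0.497, 0.665 and 0.739. miR-672-5p was higher, by 0.56 ± 0.09 log2 (5.43e-05). The imprinted Dlk1-Dio3 region, which holds another large miRNA cluster, had 64 entries on the array and 8 tested, of which 0 were called in the averaged comparison, with 1 at an unadjusted p under 0.05 and a median of -0.013 log2. The averaged values of the 4 with the highest mean level were miR-494-3p at 0.16 ± 0.06 log2, miR-127-3p at -0.084 ± 0.06, miR-136-5p at -0.32 ± 0.19 and miR-379-5p at -0.0022 ± 0.05. Lower in the list, miR-377-3p had a mean at the floor and a difference of 0. miR-376c-3p and miR-329-3p had means near it (-6.64 and -6.62 log2), which limits what the count and median of the 8 can show. At single durations miR-136-5p was lower at 4 weeks (-1.12 ± 0.36 log2, limma adjusted p 0.0223) and miR-494-3p higher at 4 weeks (0.35 ± 0.12, 0.0308) and 12 weeks (0.49 ± 0.13, 0.018). For miR-494-3p the difference between durations also passed (0.0291). These lists share all arrays with the members, and the difference between lists was not tested.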

How the data were processed

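The deposited values per spot are an intensity from which Feature Extraction 10.7.3.1 had removed background and spatial trend, per the file headers, with spot marks for outliers, saturation and background set by the same software. The deposited series table holds log2 values that the authors had normalized, by steps the labels do not describe. Its array medians were 2.71 to 2.85, and it correlated with the scaled signals used here at 0.981 to 0.989, from which scale and direction were taken.

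Outlier spots (297 to 655 of 13000 non-control spots per array) were left out and the spots of each of 1857 probes averaged. Signals were scaled to the 75th percentile of 385 probes that every array detected. Group means were fitted in R 4.3.3 with limma 3.58.1 (lmFit, eBayes, 23 residual degrees of freedom) and checked on simulated data. Groups and replicate numbers came from the sample titles. Every tested member is named in the averaged comparison, and elsewhere each called member and, where under 3 were called, those of lowest p up to 3. The rule for members uses names alone, but it, the lists and the alternatives were set with earlier results of these data known. The normexp alternative used spot medians, since spot means were not used here. The number of arrays limits the precision.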

Additional observations from a re-analysis of the deposited data

Results flagged for a closer look

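One value of miR-467e-5p lay apart from its group: among the 4 weeks controls, replicate 4 was at -6.51 log2, and the other 3 arrays lay between -6.17 and -6.10. Its gap was larger than Dixon's 95% limit for 4 samples. Of 46 groups of 4 arrays above the floor, this was the only 1 past that limit, which chance passes in about 1 of 20 groups. Without that array the averaged difference of miR-467e-5p passed.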

How the results depend on the processing

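The number of the 12 members called depended on the processing, most of all at single durations, and every call of a smoke difference was lower in smoke. In the order averaged, 4, 6, 8 and 12 weeks, difference between durations and controls between durations, the reported counts were 6, 1, 0, 5, 4, 0 and 1. The 75th percentile of all probes gave 9 at 8 weeks, 2 at 12 weeks, 1 for the difference and 4 for controls. Quantile normalization gave 3 at 6 weeks, 10 at 8 weeks, 1 and 2. No scaling gave 5 averaged (miR-669a_v15.0 and miR-467b-5p lost, miR-466f-3p gained), 0 at 4 weeks, 12 at 8 weeks, 0 at 12 weeks, 10 and 11. It put the median of all tested miRNAs at -0.15 log2 averaged, -0.86 at 8 weeks and 0.20 at 12 weeks, against -0.0051, -0.050 and -0.076 as reported. Normexp with quantile normalization gave 2 at 4 weeks, 2 at 6 weeks, 8 at 8 weeks, 1 and 2. The scanner's summed signal gave 2 at 6 weeks, 11 at 8 weeks, 2 at 12 weeks and 2 for controls, and the mean of all probes 1 at 6 weeks. The series table gave 2 at 4 weeks, 9 at 8 weeks, 2 and 4. Without smoke arrays 2 and 3 of 4 weeks it was 0 at 4 weeks and 2 for controls, and with only the arrays of that duration 0 at 4 weeks and 3 at 8 weeks.

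With fewer members measurable the counts fell: detection on every array, which leaves 2 members, gave 2 averaged, 1 at 8 weeks, 1 at 12 weeks and 0 for controls, and a floor 4 times higher gave 1, 1, 1 and 0. Of alternatives chosen after seeing the data, the floor added to the signal gave 1 for the difference and 2 for controls, averaging over 4, 6 and 12 weeks alone 4, and brightness as a covariate 7 averaged, 3 at 6 weeks, 10 at 8 weeks, 7 and 7. Arrays closer than 0.1 averaged gave 3 averaged, 0 at 4 weeks, 1 at 8 weeks, 0 at 12 weeks and 0 for controls, and the wider limit 1, 0, 0, 0 and 0. Normexp with no scaling gave 0 averaged (3 at an unadjusted p under 0.05), 12 at 4 weeks, 0 at 8 weeks, 0 at 12 weeks and 0 for controls. There all tested miRNAs had a median of -0.31 log2 averaged and -0.91 at 4 weeks, miR-467b-5p at 4 weeks turned to -1.12 log2 and miR-669a_v15.0 at 12 weeks to 0.044. It was the only one of 19 alternatives to end the averaged call of miR-669f-3p (-0.63 log2, limma adjusted p 0.152), which otherwise lay between -0.68 and -0.28. The causes were not tested.

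Leaving out each array in turn gave 6 to 7 members averaged, 0 to 1 at 4 weeks, 0 to 2 at 6 weeks, 4 to 7 at 8 weeks, 3 to 5 at 12 weeks, 0 to 2 for the difference and 0 to 2 for controls. The replicate block left all 7 counts as they were (6, 1, 0, 5, 4, 0 and 1), as did slide as a block. Only 7 of 15 pairs of the same number deviated together (correlation over 0.1, range -0.21 to 0.41), all of them among the 12 pairs of 4, 6 and 8 weeks, which also share a slide. Since not every pair did, the numbers were not taken to pair the samples. Most members lie near background, which limits them more than the bright miRNAs of the array.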

Other observations

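miR-466c-5p_v15.0, below the filter, had a lone high value of -5.18 log2 on replicate 3 of 12 weeks smoke, where it was not marked as above background, and lay at the floor on the other 30 arrays. The 2 arrays on which it was detected were controls, at the floor after scaling.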
